A study of Gallus gallus with 12 samples.

Results

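Described here are 74 genes of the hen oviduct that were expressed above a set level in the uterus at 120 days of age. They lay far lower there at 300 days and had a similar mean level in the magnum at the ages compared. They were chosen from 18241 numbered genes in a table of 19820 by their measured values. The mean of the 3 uterus libraries at 120 days had to reach 100 and be at least 3 times the 300-day mean plus 1. Every 120-day uterus library had to lie above every 300-day one, and the 300-day mean of the magnum had to be 0.67 to 1.5 times its 120-day mean. The uterus conditions were met by 675 numbered genes. Of these, 586 (86.8%) had a magnum ratio below 0.67, 14 had one above 1.5, 1 had no defined ratio because it was listed at 0 in every magnum library, and the 74 described here lay in between.

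The study sequenced messenger RNA from the uterus and the magnum of Lohmann layers, a commercial egg-laying strain of chicken (Gallus gallus), to compare the function and defense of the segments in hens before and during lay. There were 3 libraries each of uterus at 300 days, uterus at 120 days, magnum at 300 days and magnum at 120 days. The labels give no treatment or genotype and do not state whether each library stands for a different hen. The spread between libraries may therefore be partly technical.

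The magnum is the longest segment of the oviduct, and its tubular glands make and store the proteins of egg white. The uterus, or shell gland, comes further down the tract, where the egg is plumped with fluid and the calcium carbonate shell is laid on it. As hens mature, ovarian steroids drive the growth of the oviduct and the differentiation of its gland cells, and the mix of cell types in each segment changes. The libraries were made from whole tissue, so fewer cells of a type and less RNA per cell cannot be told apart.

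The deposited tables call genes by numbered identifiers, and 0 of the 19820 identifiers matched the chicken reference table used here (assembly GRCg7b). No symbol, position, sequence or function is therefore given for any of the 74 genes, and neither segment could be checked against its marker genes. The gene table does not hold raw counts: its columns had already been brought to a common level, and its values are referred to as scaled counts. A second table gives FPKM, a measure meant to correct for gene length too, which is used below for most comparisons of levels between genes. Its values were not the scaled counts divided by the stated length alone. In 1 of the 74 genes, 241 scaled counts in the 120-day uterus stood beside 2.64 FPKM, and 261 in the 300-day magnum beside 1.08 (means). The reason was not tested. Orders and medians of scaled counts over different genes are not corrected for length. The column sums were 44995822 to 77432154 for the 300-day magnum and 14499548 to 25071610 for the other groups, and they are not sequencing depth, which is unknown. Only 2 of the 74 carry an identifier in the text. The first, gene20693, had the highest mean scaled count of the 74 in the uterus at 120 days. The second, gene9665, had the largest fold between the ages among those with no library at 0 whose mean there reached 1000.

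The level of gene20693 in the uterus was 3626, 2725 and 3291 scaled counts at 300 days, against 9165, 16598 and 6543 at 120 days. Its magnum values were 3076, 2924 and 4529 at 300 days, against 3057, 5253 and 4712 at 120 days. The 120-day uterus libraries stood above all 9 others, which overlapped one another across groups. The uterus mean was 3214 ± 455 at 300 days and 10769 ± 5216 at 120 days (SD, n = 3 each), so that 29.8% of the younger level was left. By FPKM, it was the most abundant of the 74 in each of the 4 groups. It stood at 143 ± 19.3 FPKM in the 300-day uterus, 425 ± 132 in the 120-day uterus, 165 ± 14.7 in the 300-day magnum and 211 ± 39.5 in the 120-day magnum (SD, n = 3 each).

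In the uterus gene9665 stood at 161, 79 and 101 scaled counts at 300 days, against 605, 2051 and 1470 at 120 days. Its mean at 300 days was 8.26% of that at 120 days. The magnum libraries held 228, 3116 and 337 scaled counts at 300 days, against 1055, 1678 and 1504 at 120 days. The magnum means of 1227 ± 1637 at 300 days and 1412 ± 321 at 120 days (SD, n = 3 each) were close only because replicate 2 at 300 days was above every 120-day library while replicates 1 and 3 were below them. The log2 difference between the ages in the magnum was -1.16 ± 0.79 (SE) with all libraries and -2.32 without that replicate. Without it the gene passed as lower in the magnum at 300 days (adjusted p = 0.0118 in limma's test). By FPKM the magnum means were 4.97 ± 6.38 at 300 days and 8.93 ± 1.83 at 120 days (SD, n = 3 each). For this gene, kept in the magnum describes a mean and not the separate libraries.

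**Figure D1:**
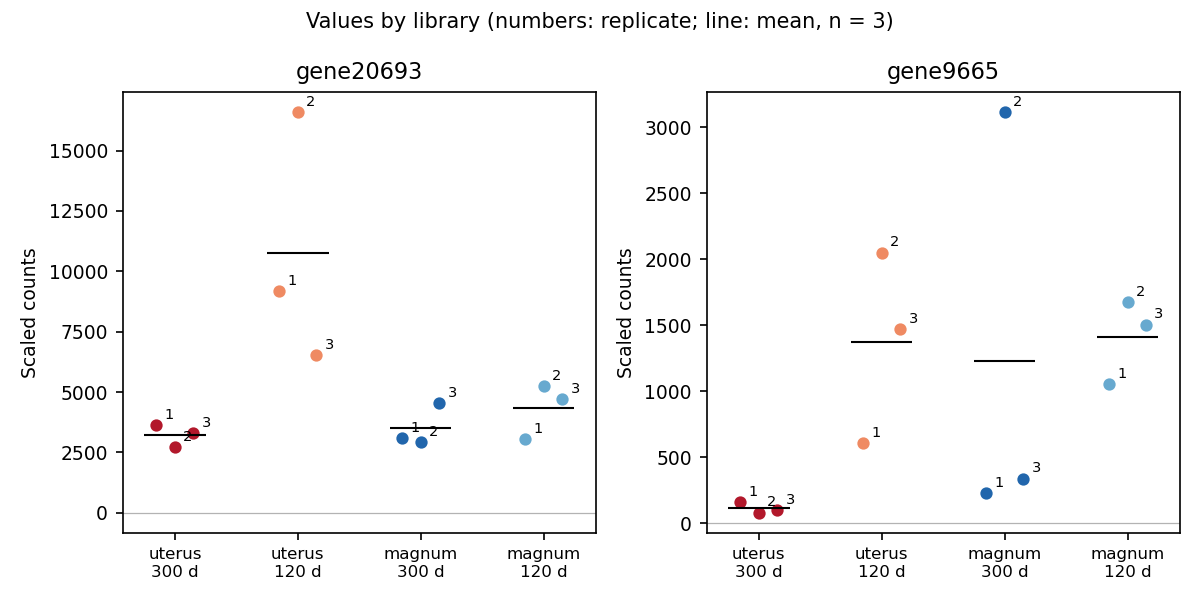
Scaled counts of gene20693 (left) and gene9665 (right) in each library of the 4 groups, with the replicate number beside each point and a line at the group mean (n = 3). The uterus at 120 days stands apart for gene20693, and for gene9665 the 300-day magnum mean of 1227 rests on replicate 2, at 3116.

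Within the uterus, the 300-day mean of the 74 genes was 3.13% to 33.0% of the 120-day mean, with a median of 26.4%. Most were not far inside the required fold: the 120-day mean was less than 4 times the 300-day mean for 40 genes, 4 to under 5 times for 17 and at least 5 times for 17, of which 6 reached 8 times. The 2 genes nearest to the limit inside it had folds of 3.01 and 3.01 over the 300-day mean plus 1, and the 2 nearest outside had 2.98 and 2.92. The means nearest to the limit of 100 were 101 and 102 inside and 98.7 and 93.7 outside, and 11 further genes met everything but the order of the libraries. Separation of the libraries was often narrow. The lowest 120-day library was less than 1.5 times the highest 300-day library for 18 genes, at least 2 times for 21 and at least 3 times for 5, with a lowest value of 1.02.

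Because the rule used this contrast, its test is given as a description. With limma's moderated test over all 14883 genes tested, 56 of the 74 were lower at 300 than at 120 days at an adjusted p below 0.05 and 0 were higher, where 7.21% and 6.54% of all genes tested passed. All 74 had passed the filter on low values. Their median log2 difference was -1.83, against 0.02 over all genes tested. The count of 56 became 33 without uterus replicate 2 at 120 days, and 37, 34 and 33 without uterus replicate 1, 2 or 3 at 300 days. Shares of all genes called in those fits are not given, so a change over all genes cannot be told apart. The 18 genes that did not pass had a median of 320 scaled counts and 6.83 FPKM in the uterus at 120 days, against 524 scaled counts and 5.33 FPKM over all 74, and their median length was 2458 bases, against 4131.

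The steepest fall by group means was that of a gene at 28, 22 and 16 scaled counts in the uterus at 300 days, against 1152, 41 and 919 at 120 days. The same gene had 999, 408 and 718 scaled counts in the magnum at 300 days, against 1012, 373 and 910 at 120 days. Its replicate 2 was the lowest library in all but the 300-day uterus, and the lowest 120-day uterus library was only 1.46 times the highest 300-day one. The second steepest fall was to 0, 19 and 5 scaled counts in the uterus at 300 days, against 31, 147 and 302 at 120 days. In the magnum this gene was at 314, 911 and 422 at 300 days, against 804, 799 and 799 at 120 days. It was the only gene of the 74 with a library listed at 0, and its 120-day magnum libraries lay closer together than those of any other of the 74.

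**Figure D2:**
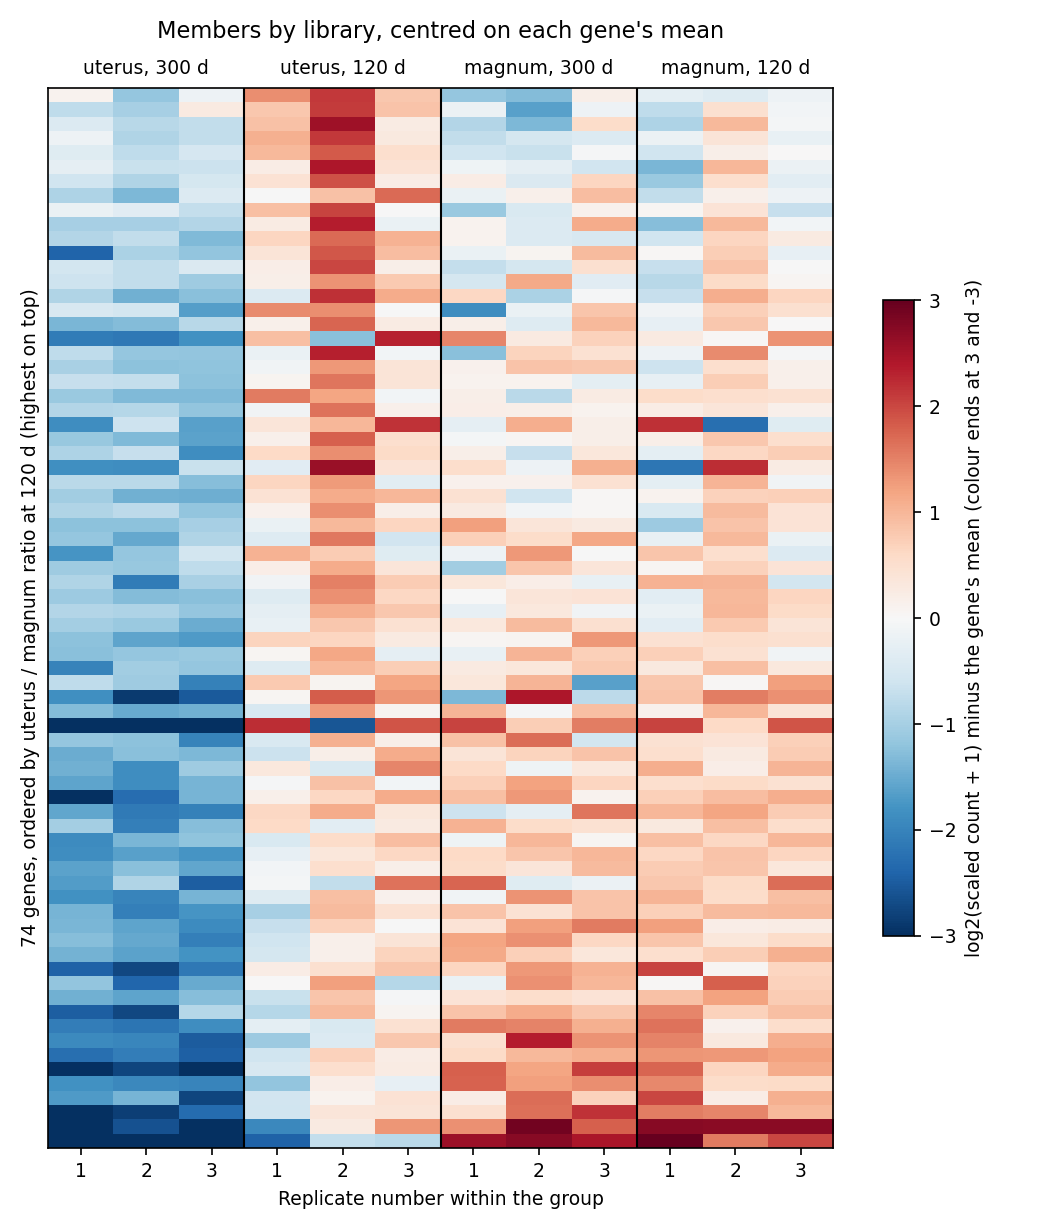
Colour shows log2(scaled count + 1) of the 74 genes (rows) in the 12 libraries (columns, by group and replicate number), less each gene's mean over the libraries, with rows ordered by the ratio of uterus to magnum at 120 days. The 3 uterus libraries at 300 days are low for most genes, and replicate 2 is the highest 120-day uterus library for 50 of the 74. The magnum columns change from pale to red toward the bottom.

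Levels by FPKM covered a wide range. The 74 genes had a median of 1.17 FPKM in the 300-day uterus, 5.33 in the 120-day uterus, 4.91 in the 300-day magnum and 5.57 in the 120-day magnum. Their summed FPKM was 490 ± 25.8 in the 300-day uterus and 1578 ± 636 in the 120-day uterus, and 1195 ± 121 in the 300-day magnum and 1306 ± 138 in the 120-day magnum (SD, n = 3 each). Between them the 5 with the highest FPKM held 66.1% of the summed group means in the uterus at 300 days and 61.3% at 120 days, against 41.4% in the magnum at 300 days and 47.3% at 120 days. At least 10 FPKM was reached by 10 of the genes in the uterus at 300 days and 21 at 120 days, and by 22 in the magnum at each age. In the uterus at 300 days 34 were below 1 FPKM, against 4 at 120 days. The second most abundant in the uterus at 120 days had 67.2 FPKM in the 300-day uterus, 226 in the 120-day uterus, 72.8 in the 300-day magnum and 106 in the 120-day magnum. It shared with gene20693 a 300-day level that was alike in the segments and a 120-day mean that was higher in the uterus. Its 120-day uterus mean had an SD of 175 FPKM, and its scaled counts overlapped between the segments at that age. Neither of these genes passed limma's test between the segments at 120 days (adjusted p = 0.553, and 0.156 for gene20693). The libraries of the former are listed below, where it is the sixth in the order of scaled counts. The third, at 57.2 FPKM in the uterus at 300 days and 145 at 120 days, differed from these in the magnum, where it stood at 104 at 300 days and 148 at 120 days, and was thus near the same level in the segments at the younger age.

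Gene length was not used by the rule. The gene models of the 74 were 681 to 22312 bases long with a median of 4131, against 3855 over the 11155 numbered genes that reached the same mean of 100 in the 120-day uterus. The 586 genes that met the uterus conditions and were lower in the magnum too had a median of 3705 bases. In each of these sets the middle of the range was wide, with quartiles of 2374 and 6490 bases for the 74 and 2252 and 6203 for the 11155. Of the 74, 12 were longer than 10000 bases, and the shortest was the fourth most abundant in the uterus at 120 days, at 102 FPKM.

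The magnum values bear on the second word of the description. By the rule the ratio of the 300-day to the 120-day mean lay within 0.67 to 1.5. The ratios ran from 0.673 to 1.49 with a median of 0.911, and 28 were above 1 and 46 below. The nearest genes outside the limits had ratios of 0.666 and 0.662 below, and 1.65 and 1.93 above. For 69 of the 74 the magnum libraries of the ages overlapped, for 1 every 300-day library was above every 120-day one, and for 4 every one was below. Over all genes tested, 18.7% had all 300-day magnum libraries above and 20.5% had all below. In limma's test 0 of the 74 were higher and 0 lower at 300 than at 120 days in the magnum, against 12.1% and 13.6% of all genes, and at an unadjusted p below 0.05 the counts were also 0 and 0, against 18.7% and 20.7% of all genes. Since the rule chose a ratio near 1, nothing is read from this. Without magnum replicate 1 at 120 days 1 gene was higher, and without magnum replicate 2 or 3 at 300 days 1 was lower. Without replicate 2 that gene was gene9665. Shares of all genes called in those fits are not given.

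An even mean did not always mean even libraries. When each of the 6 magnum libraries was left out in turn, 50 to 62 of the 74 stayed in the window of 0.67 to 1.5, the lowest number without replicate 1 at 120 days, and 27 (36.5%) stayed in it every time. By medians of the 3 libraries, 52 were in the window. With FPKM in place of scaled counts 55 were in it, 12 were below and 7 above. The highest library was over 5 times the lowest for 3 genes in the magnum at 300 days and for 3 at 120 days. A gene that stayed in the window every time is the second in the order of scaled counts in the 120-day uterus: it had 3663, 3710 and 8691 in the magnum at 300 days, against 4827, 5053 and 4874 at 120 days, and in the uterus 1499, 1170 and 1082 at 300 days, against 5571, 5480 and 4257 at 120 days. Its 120-day uterus libraries lay closer together than those of any other of the 74, whereas replicate 3 of the 300-day magnum was above the 5 other magnum libraries.

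Whether a gene counts as kept in the magnum also depends on the scale, and the deposited one sets the libraries to a common level of the typical gene. The deposited columns of the 300-day magnum summed to much more than the others. When each column was divided by its own sum, 0 of the 74 stayed in the magnum window and all 74 were below it, with ratios of 0.177 to 0.463 and a median of 0.262. Over all genes tested that division gave a median ratio of 0.285, so that the 74 stood close to the typical gene of the magnum on this scale too. In the uterus the median ratio of the 74 was 0.264 on the deposited scale and 0.235 after the division. As a share of the column, the 74 genes together held 0.112% ± 0.0103 in the 300-day uterus and 0.473% ± 0.177 in the 120-day uterus, and 0.132% ± 0.0448 in the 300-day magnum and 0.433% ± 0.127 in the 120-day magnum (SD, n = 3 each).

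**Figure D3:**
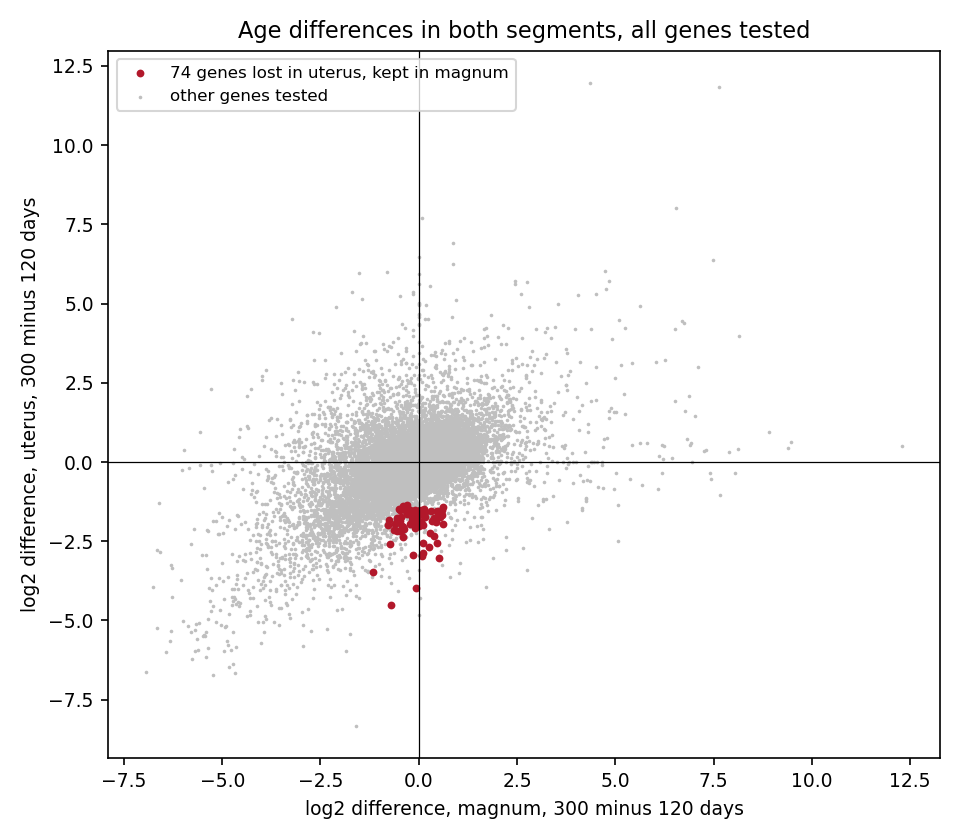
Each point is 1 of the 14883 genes tested, at its log2 difference between 300 and 120 days in the magnum (horizontal) and in the uterus (vertical) on the log2(scaled count + 1) scale. The 74 genes, in red, form a band below the zero line of the uterus and around the zero line of the magnum, where the rule placed them, at the edge of the cloud of other genes.

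How the segments compared at each age was not set directly by the rule, but it fixed a high uterus level at 120 days and a low one at 300 days, and the comparisons share these libraries. At 120 days the uterus mean was 0.0794 to 3.60 times the magnum mean, with a median of 1.06; it was higher in the uterus for 41 genes and lower for 33, and for 55 the segments were within 2-fold of each other. In limma's test 0 of the 74 were higher in the uterus and 1 was lower, against 0.242% and 0.376% of all genes, and at an unadjusted p below 0.05 the counts were 7 and 10, against 4.70% and 4.92% of all genes. The gene that passed was at 210, 692 and 652 scaled counts in the uterus and 11697, 3345 and 4538 in the magnum at this age. Its log2 difference of -3.62 ± 0.52 (SE) had an adjusted p of 0.00978. The uterus libraries were far below those of the magnum, of which replicate 1 was the highest. A fit of the 6 libraries of this age alone passed 0 of the 74 in either direction, and 3 were lower without uterus replicate 2. Shares of all genes called in these 2 fits are not given. All 3 uterus libraries were above the magnum for 3 genes and below it for 6, where 5.78% and 7.49% of all genes had such an order.

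At 300 days the uterus mean was 0.0146 to 1.22 times the magnum mean with a median of 0.284, and it was below the magnum for 72 of the 74. For 61 it was 0.5 times the magnum mean or less, and for 10 it was 0.1 times or less. In limma's test 47 were lower in the uterus and 0 higher, against 11.3% and 12.9% of all genes. At an unadjusted p below 0.05, 56 were lower and 0 higher, against 17.1% and 19.2% of all genes. Every uterus library was below every magnum library for 60 of the 74, against 20.4% of all genes, and above for 0, against 23.6%. The median log2 difference was -1.79, and 0.02 over all genes tested. Among the 47, 43 had also passed between the ages in the uterus, and 42 of those 43 had not passed between the segments at 120 days. At that age only 0.242% of all genes tested passed as higher in the uterus and 0.376% as lower. Not passing there was thus the usual outcome for any gene. The count of 47 fell to 13 when columns were divided by their sums, and then 6 were higher in the uterus. Shares of all genes called on that scale are not given beside them. The 300-day uterus libraries entered both the rule and this comparison, so these counts are a description.

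**Figure D4:**
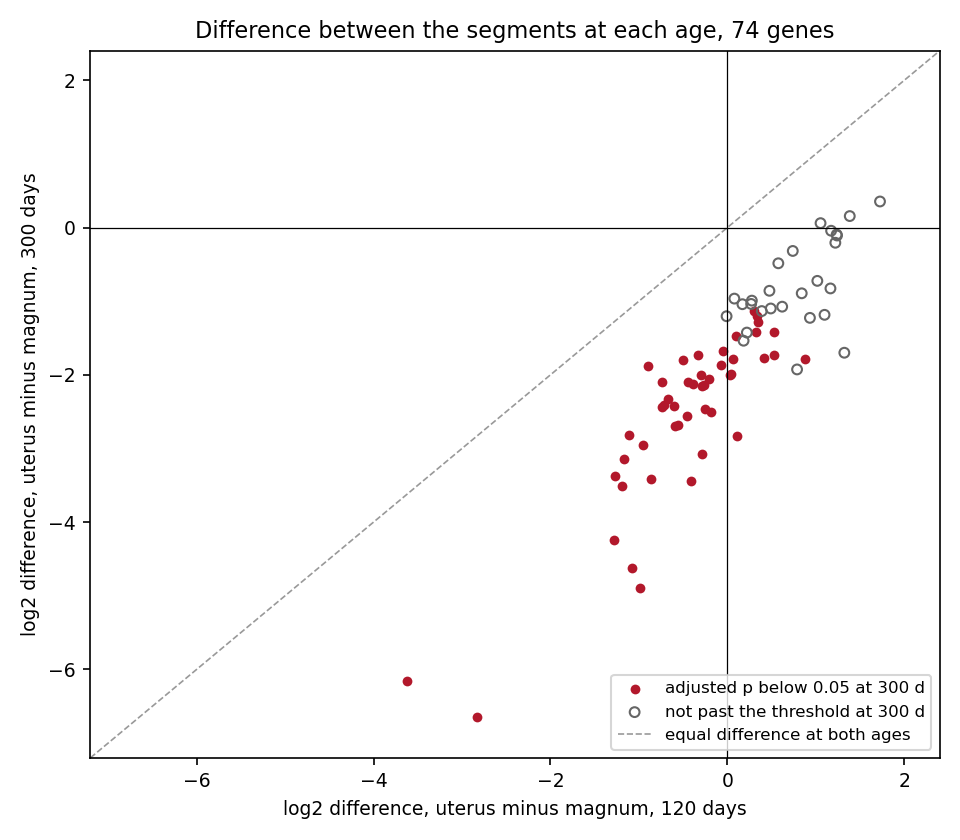
Log2 difference between uterus and magnum for the 74 genes, at 120 days (horizontal) and at 300 days (vertical), on the log2(scaled count + 1) scale, with filled points for the 47 that passed limma's test at 300 days. All points lie below the dashed line of equal difference, which the rule favours, and most lie below the zero line at 300 days.

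The 74 genes differed among themselves in the segment ratio at 120 days. The rule required a lower uterus mean at 300 days, with no upper limit on the fold, and held the magnum ratio near 1. The segment ratio at 300 days therefore partly follows from that at 120 days. The 300-day values of the subgroups below, and their counts among the 47, are therefore a description. In 11 of them, gene20693 included, the uterus mean at 120 days was at least 2 times that of the magnum. At 300 days these had uterus means of 0.387 to 1.22 times the magnum mean with a median of 0.867, and 0 of the 11 were among the 47. An example, the sixth in the order of scaled counts in the 120-day uterus, had 1022, 772 and 786 in the uterus and 1131, 1015 and 831 in the magnum at 300 days, and 1437, 6634 and 1669 in the uterus and 471, 2461 and 1084 in the magnum at 120 days. Replicate 2 was the highest 120-day library of this gene in each segment. The gene did not pass between the ages in the uterus (adjusted p = 0.103 in limma's test). Its lowest 120-day uterus library was 1.41 times the highest 300-day one, and it left the magnum window without at least 1 magnum library. For 10 of the 11 the highest 120-day uterus library was replicate 2, against 50 of the 74. For 8 of the 11 the lowest 120-day magnum library was replicate 1, against 38 of the 74. The 11 were picked by a ratio that these libraries raise, so this subgroup may partly reflect them. Of the 11, 5 had passed between the ages in the uterus, against 56 of the 74. Only 1 stayed in the magnum window with each magnum library left out, against 27 of the 74. In 8 genes the uterus mean at 120 days was 0.5 times the magnum mean or less. The uterus means of these at 300 days were 0.0146 to 0.138 times the magnum mean, and all 8 were among the 47. The most abundant of them in the 120-day uterus had 1288, 1192 and 1144 scaled counts in the uterus and 15430, 10643 and 11850 in the magnum at 300 days, and 2000, 5220 and 3819 in the uterus and 12335, 6702 and 6785 in the magnum at 120 days. Its groups did not overlap between the segments at either age. This gene and another of the 8 carry consecutive identifier numbers, the only such pair among the 74, and had uterus means of 0.428 and 0.425 times the magnum mean at 120 days and 0.0956 and 0.138 times at 300 days. In all 8 the highest 120-day magnum library was replicate 1, which was highest for 21 of the 74 and for 37.6% of all genes tested. The 8 were picked by a mean that this library raises, so the subgroup may partly reflect it. All 8 had passed between the ages in the uterus, and 2 stayed in the magnum window with each magnum library left out. The median fold between the ages in the uterus was 3.70 in the 11 genes and 5.35 in the 8. The median length was 2300 bases in the 11 genes and 6102 bases in the 8.

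The age change itself was compared between the segments as the interaction in the same fit, which the rule fixed in direction. It passed for 13 of the 74, all with a lower change in the uterus, against 1.01% of all genes for that direction and 1.61% for the other. The other 61 met the rule without passing this test. Neither gene20693, with an interaction of -1.35 ± 0.46, nor gene9665, with -2.32 ± 1.12 (SE), was among the 13. Among the 13, the uterus mean was 0.423 to 1.49 times the magnum mean at 120 days and 0.0385 to 0.294 times at 300 days. They included the gene at 5571, 5480 and 4257 scaled counts in the 120-day uterus, and 7 of the 13 stayed in the magnum window with each magnum library left out.

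The libraries of a group were not alike for these genes. The highest of the 3 libraries was a median of 1.45 times the lowest in the 300-day uterus and 2.76 times in the 120-day uterus, and 2.10 times in the 300-day magnum and 2.04 times in the 120-day magnum. Over all genes tested these medians were 1.31, 1.70, 1.66 and 1.53 in the same order of groups. Over the 586 genes that met the uterus conditions and were lower in the magnum too, they were 1.52, 3.27, 2.11 and 2.37. Over the numbered genes that reached a mean of 100 in the 120-day uterus, they were 1.24, 1.57, 1.56 and 1.42. The 74 and the 586 thus shared a wider spread than all genes tested. Both sets had met the same uterus conditions, which used these uterus libraries, and were told apart by their magnum means. How far the rule itself gave the wider spread was not tested. Uterus replicate 2 at 120 days was the highest of its group for 50 of the 74 (67.6%), replicate 3 for 18 and replicate 1 for 6, while replicate 2 was the highest for 37.6% of all genes tested. It was also the highest for 407 of the 586 genes (69.5%) that were lower at 300 days in the magnum as well. The uterus conditions used this library for both sets, so their likeness is a description. The summed scaled counts of the 74 genes were 50055, 104232 and 58469 in replicates 1 to 3 of the 120-day uterus, against 73978, 79152 and 66512 in the 120-day magnum. Without uterus replicate 2 at 120 days, 44 genes met the rule, of which 36 were among the 74.

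For these genes replicate 2 was the clearest case of uterus and magnum libraries with the same number deviating together at 120 days. For replicate 2, the deviations of the 74 genes from their group means in uterus and magnum correlated at 0.66, for replicate 3 at 0.44 and for replicate 1 at 0.13, over 74 genes that share the same pairs of libraries. Uterus replicate 3 and magnum replicate 1, whose numbers differ, correlated at 0.40, close to the value of replicate 3 and above that of replicate 1. Over all genes tested the same-numbered values were 0.59, 0.39 and 0.36, and that of uterus replicate 3 with magnum replicate 1 was 0.038. At 300 days they were 0.18, 0.17 and 0.07 in the 74 genes for replicates 2, 3 and 1. Replicate 2 was the highest 120-day library in each segment for 36 of the 74. Any same number was highest in each segment at that age for 62.2% of the 74. The share was 56.8% over all genes tested and 75.8% over the 586 genes also lower in the magnum. In the 18 genes with uterus replicate 3 highest, the median deviation of magnum replicate 2 was -0.35 on the log2 scale. It was 0.49 for the 50 genes with uterus replicate 2 highest. The uterus mean at 120 days was a median of 0.736 times the magnum mean in these 18 genes and 1.22 times in the 50. The split was made by the 120-day uterus libraries, so with the correlations above the magnum deviations largely follow from it. The segment ratios are not fixed by the split, and why they differed was not tested. All of these values are a description. Whether the same-numbered libraries came from the same hens is not stated in the labels.

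**Figure D5:**
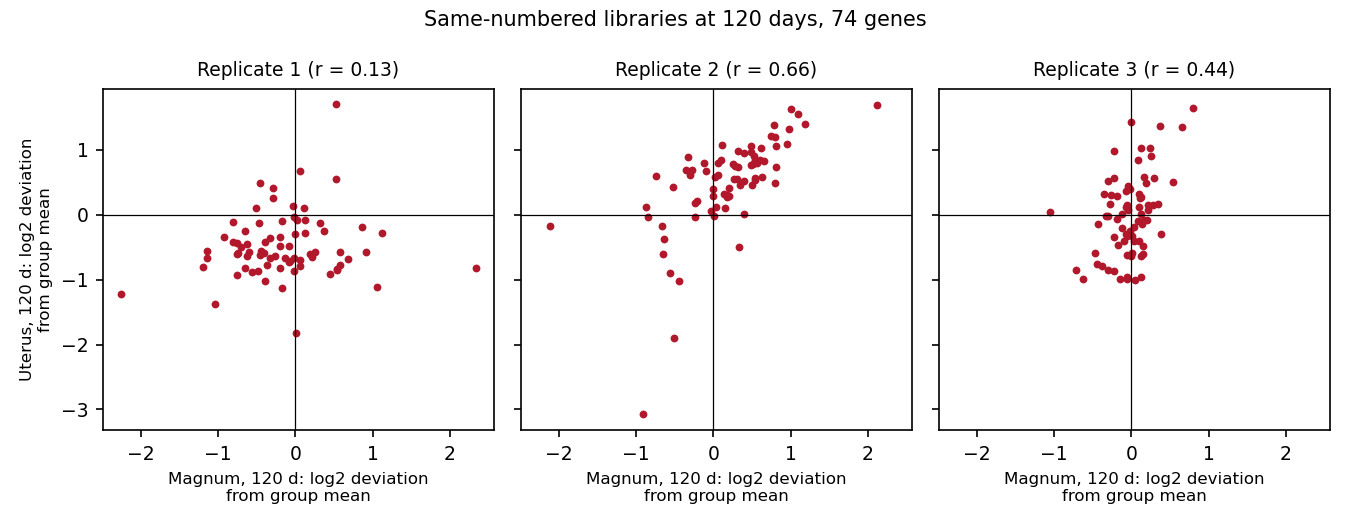
Deviation of each of the 74 genes from its group mean at 120 days, on the log2(scaled count + 1) scale, in the magnum (horizontal) and uterus (vertical) library of the same replicate number, 1 panel per number. In replicate 2 most points lie high in the uterus and run upward together (r = 0.66), while replicate 1 shows a looser cloud (r = 0.13).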

How the data were processed

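The labels' protocols name total RNA extraction with a Tiangen RNAsimple kit and a Smarter mRNA-seq library kit. No role or order is given for the tools, which were, per the submitters' processing notes, Cufflinks 2.0.2, GATK 3.8, TopHat2 2.0.8, Trimmomatic 0.32 and FastQC 0.11.6. The build, annotation and counting method were not given in the sources read, and counts of similar or overlapping genes are uncertain for that reason. The gene table deposited by the authors was treated as a score, a scaled count rounded to whole numbers, since median-of-ratios size factors of its 12 columns were 0.974 to 1.01. Gene lengths were taken from its own length column. The FPKM values were deposited by the authors for the same genes.

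The main test was limma 3.58.1 (R 4.3.3) with a mean-dependent prior on log2(scaled count + 1), which understates changes of low genes. It took 14883 genes with at least 10 in at least 3 libraries, all 12 libraries in 1 fit with a coefficient per group (8 residual degrees of freedom), and Benjamini-Hochberg adjustment with a threshold of 0.05. The fit was tested on simulated data. Alternatives were another scaling, FPKM with pseudocounts of 1 and 0.1, no filter, the compared groups alone, each library left out and replicate blocks. Same-numbered libraries deviated together at 120 days (correlations 0.361, 0.591 and 0.39 over all genes tested) but not all at 300 days (0.198, 0.216 and 0.084). Libraries of different ages reached 0.24 (magnum replicate 1 at 300 days, uterus replicate 3 at 120 days) and -0.318 (replicate 3 of the same groups). The labels state no pairing, and its presence was not tested. The reported fit holds no pairing, and replicate blocks are alternatives. Tables and figures used Python 3.11.15, pandas 2.3.3 and matplotlib 3.10.9. The genes, the rule, the rule for the named identifiers and the comparisons were chosen with earlier results of these data known. Other genes are described by their place in an order of level or fold, and those were chosen after their values were seen.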

Additional observations from a re-analysis of the deposited data

How the results depend on the processing

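The number of genes that met the rule was 204 with a fold of 2 and 16 with a fold of 5 in the uterus, 33 when the lower limit of the magnum window was 0.8 and the upper its inverse, and 11 with columns divided by their sums, of which 0 were among the 74. It was 60 after upper quartile rescaling and 53 by FPKM, of which 53 and 44 were among the 74. With 1 library left out it ran from 44 to 107, and the count of genes called lower at 300 days in the uterus from 33 to 60. In the magnum age comparison 0 to 1 genes were higher and 0 to 1 lower with a library left out, and 1 was higher with FPKM at either pseudocount. With columns divided by their sums 65 were lower, on a scale where the typical gene was lower too. The median magnum ratio there was 0.262 for the 74 and 0.285 over all genes tested. Shares of all genes called are not given for that scale. Between the segments at 120 days 1 to 3 genes were lower with a library left out and 0 in the fit of the compared groups alone. At 300 days 6 were higher and 13 lower in the uterus with columns divided by their sums, and 37 to 50 were lower with a library left out.

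A replicate block within each age gave 1 lower and 0 higher genes between the segments at 120 days, and 58 lower and 0 higher at 300 days. A replicate block shared by all libraries gave counts of lower genes of 54 for the uterus ages, 1 between the segments at 120 days and 47 at 300 days. Shares of all genes called are given for the main fit only. Changes of these counts under blocks, left-out libraries or other scales can therefore not be set beside those of all genes. The difference of gene9665 between uterus and magnum at 120 days, -0.18 on the log2 scale, was 0.047 with columns divided by their sums and ran from -0.55 to 0.32 with a library left out. That of gene20693 at 300 days, -0.11, was 0.0044 after upper quartile rescaling, 1.72 with columns divided by their sums (adjusted p = 0.00333 in limma's test, where its alternatives ranged from 0.00333 to 0.995) and -0.23 to 0.090 with a library left out. On the deposited scale neither difference passed, and under the alternatives that reversed the sign only that of gene20693 with columns divided by their sums did. The causes were not tested. Depth is unknown, so no counting error could be set beside any value.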

Other observations

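Among the 1579 loci with a new-gene label, which the rule left out, 22 met the uterus conditions and 1 also had a magnum ratio of 0.67 to 1.5.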
